A study of Rattus norvegicus with 12 samples.

Results

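Kidneys make cholesterol and long-chain fatty acids from acetyl-CoA, and the genes that do this fall into 2 linked arms. The report concerns 35 rat genes: 17 enzymes that lead from acetyl-CoA to cholesterol, 6 regulators or carriers of sterols, 6 genes that supply or build fatty acids, and 6 desaturases or elongases. They were listed by name, and each was represented by the array probe with the highest mean intensity among the probes naming that gene alone. Of the 35 genes 34 had a probe (Elovl5 was the exception) and 33 were tested; Hsd17b7 was above background on too few arrays. These genes lie among 12725 gene symbols on the array, of which 11029 were tested.

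As background, acetyl-CoA is condensed and reduced to mevalonate, mevalonate is turned into isoprenoid units, and these are joined to squalene, which is closed into a ring and trimmed to cholesterol. The sterol regulatory element binding proteins, encoded by Srebf1 and Srebf2, switch on most of these genes. Scap escorts them out of the endoplasmic reticulum when sterol is scarce, and Insig1 and Insig2 hold the complex back when it is plentiful. In other tissues the Srebf1 product is known mainly for fatty acid genes and the Srebf2 product for cholesterol genes.

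Kidney RNA came from male Fischer 344 rats in 3 groups of 4 samples, each on its own single-colour CodeLink array. The young rats were 4 months old and the aged rats 24 months old. The young and 1 aged group were fed ad libitum (free access to food) and the other aged group was caloric-restricted, with intake cut by 10% from 10 weeks of age, by 25% from 15 weeks and by 40% from 4 months. The study's title gives its concern as the aging kidney's susceptibility to ischemic injury; the labels name no injury or other treatment for these samples. The restricted rats differ from the aged ad libitum rats in diet, and from the young rats in age and diet together. There is no young restricted group.

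All 4 samples of each group are biological replicates per the labels. Some arrays of a group, however, differed from each other by no more than repeat spots on 1 array. Over bright probes a robust SD was taken from the median absolute deviation of the log2 differences and scaled to 1 array. It was 0.0641 to 0.0965 between such arrays, against 0.0695 to 0.103 for repeat spots. Young arrays 1 and 2 were therefore also counted as 1 sample (young A), as were young 3 and 4 (young B), restricted 1 and 3 (restricted A), restricted 2 and 4 (restricted B), and all 4 ad libitum arrays. Calls below come from the fit to the 12 arrays as labelled, at an adjusted p under 0.05 over all 25398 tested probes, and they may measure technical spread only. Beside them stand the SE and adjusted p with 5 samples, which takes the spread of the lone ad libitum sample to be that of the others. By the robust SD between arrays, young samples A and B lay apart (0.238 to 0.269), nearly as far as ad libitum from young arrays (0.247 to 0.37).

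Array depth and layout also followed the groups. The share of probes above background was 64.5% to 71.4% on young arrays, 72.6% to 74.1% on ad libitum arrays and 72.9% to 75.8% on restricted arrays. The slide numbers in the image names fall into 2 series, with the ad libitum arrays all in series 1, the young arrays all in series 2 and the restricted arrays 2 in each. The image names of the ad libitum arrays carry a scan number that no other array has, so scan number and group cannot be told apart for them. Whether the series or the scan number marks a batch is not known. Kidney markers were present: all 12 proximal tubule, 8 loop and distal tubule, 8 collecting duct and 6 podocyte markers with a probe were above background on at least 1 array. Macrophage markers summed to 15500 to 15700 intensity units on young arrays, 35500 to 37300 on ad libitum arrays and 34500 to 36300 on restricted arrays. Collecting duct markers summed to 10000 to 10900 on young, 7840 to 8270 on ad libitum and 8310 to 9470 on restricted arrays. The sums for loop and distal tubule were 35600 to 41500, 30600 to 35300 and 45100 to 47600 in the same order, and those for fibroblasts 2420 to 3300, 6450 to 7290 and 5010 to 5840. The fibroblast sum held only 3 of the 6 listed markers, and the tested ones did not move alike between diets. There Dcn was lower in restricted kidney (-0.63, adjusted p = 0.00246 over 12 arrays). Col1a1 (0.46, 0.0699), Col1a2 (0.21, 0.199) and Pdgfrb (-0.05, 0.926) did not pass. Adrenal cortex, which is rich in sterol enzymes, gave sums of 1370 to 1570, 1220 to 1460 and 1320 to 1460, with Cyp11b1 above background on no array. Of its 4 tested markers 2 were lower in ad libitum than in young kidney, Cyp21a1 (-0.7, adjusted p = 5.67e-05 and 0.227) and Hsd3b2, which read 8.71 and 7.38 in the young samples, 3.13 in the ad libitum sample and 3.5 and 3.44 in the restricted samples. Cyp11a1 (0.47, adjusted p = 0.264 and 0.709) and Cyp17a1 (0.19, 0.325 and 0.769) differed the other way and did not pass. Cyp17a1 made up much of the adrenal sum, which held 4 of the 9 listed markers. In whole kidney, fewer cells of a type and less RNA per cell cannot be told apart, and the part of these shifts in the results below was not tested.

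The promoters of 28 of the 35 members were at hand as RefSeq windows of the GRCr8 assembly, from 250 bases before to 50 after the annotated start. They were searched on both strands for the sterol regulatory element TCACNCCAC, for CCAAT (the box bound by NF-Y, a partner of the sterol regulatory factors) and for the E-box CACGTG. The element in this exact form was found in 0 of the 28 members and in 1.12% of all 33469 windows. CCAAT was found in 22 members (78.6%), against 37.5% of all windows, and the E-box in 4 members (14.3%), against 6.42%. Of the 10 members with a window that were lower in both aged groups, 7 held CCAAT, as did 15 of the other 18. Those 18 include Hsd17b7 and Elovl5, which hold CCAAT but have no expression result. The 5 windows printed here belong to members from different steps that the results turn on: Hmgcs1, Lss, Acss2 and Dhcr7 were lower in aged kidney, and Scd2 was higher. Capitals mark CCAAT, or ATTGG where it lies on the other strand; Dhcr7 has neither in its window.
Hmgcs1, chr2:53382054-53382353, plus strand, GRCr8: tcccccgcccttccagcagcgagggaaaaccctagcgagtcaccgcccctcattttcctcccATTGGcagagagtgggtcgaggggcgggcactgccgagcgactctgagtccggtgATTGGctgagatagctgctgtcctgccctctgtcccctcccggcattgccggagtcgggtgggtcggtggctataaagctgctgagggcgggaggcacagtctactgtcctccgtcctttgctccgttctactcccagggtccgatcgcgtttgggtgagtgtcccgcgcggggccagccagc
Lss, chr20:12118181-12118480, minus strand, GRCr8: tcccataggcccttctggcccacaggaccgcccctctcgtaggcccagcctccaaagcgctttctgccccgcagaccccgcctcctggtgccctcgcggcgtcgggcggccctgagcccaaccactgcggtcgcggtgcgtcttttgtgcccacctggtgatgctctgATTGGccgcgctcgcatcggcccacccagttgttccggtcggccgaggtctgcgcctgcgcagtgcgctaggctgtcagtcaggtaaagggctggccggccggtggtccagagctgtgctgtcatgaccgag
Acss2, chr3:164464453-164464752, plus strand, GRCr8: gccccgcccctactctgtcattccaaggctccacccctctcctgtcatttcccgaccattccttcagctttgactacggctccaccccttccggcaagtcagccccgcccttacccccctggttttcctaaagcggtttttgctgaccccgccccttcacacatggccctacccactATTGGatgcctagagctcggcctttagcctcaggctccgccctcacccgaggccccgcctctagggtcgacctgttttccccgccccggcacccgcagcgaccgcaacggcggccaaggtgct
Dhcr7, chr1:208444184-208444483, plus strand, GRCr8: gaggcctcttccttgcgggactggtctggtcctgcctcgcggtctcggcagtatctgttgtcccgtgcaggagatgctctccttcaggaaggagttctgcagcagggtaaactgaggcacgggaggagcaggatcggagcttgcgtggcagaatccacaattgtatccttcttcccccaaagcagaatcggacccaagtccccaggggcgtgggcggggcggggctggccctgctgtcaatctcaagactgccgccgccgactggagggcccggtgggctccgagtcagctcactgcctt
Scd2, chr1:253118127-253118426, plus strand, GRCr8: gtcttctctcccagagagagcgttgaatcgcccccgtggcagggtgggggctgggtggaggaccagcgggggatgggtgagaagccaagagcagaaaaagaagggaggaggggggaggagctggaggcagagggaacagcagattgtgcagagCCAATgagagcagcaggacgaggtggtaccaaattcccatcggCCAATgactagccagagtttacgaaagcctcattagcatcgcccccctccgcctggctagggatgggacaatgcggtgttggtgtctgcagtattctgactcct
The map of CCAAT matches shows how they lie in all 29 windows, 2 of them for Srebf1. A match of letters is a description and not a binding site.

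**Figure D1:**
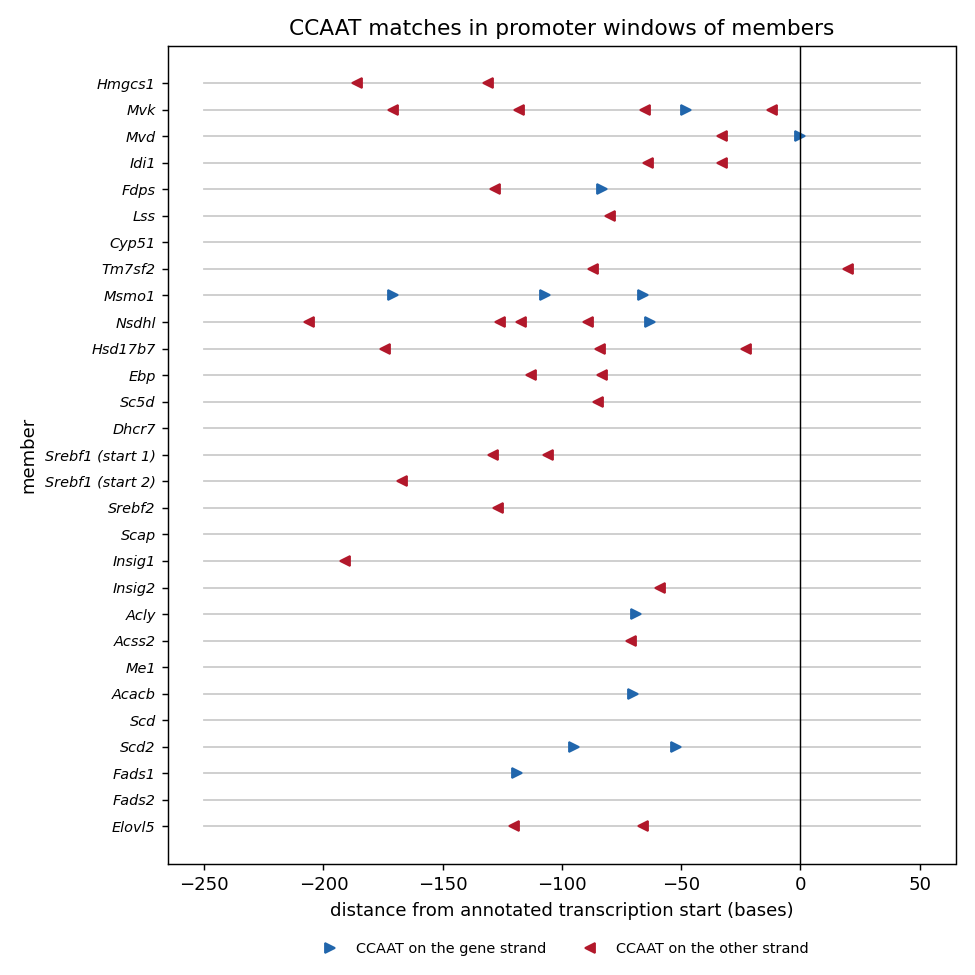
Positions of CCAAT in the promoter windows of 28 members, with distance in bases from the annotated start on the x axis and 1 line per window. Blue triangles are matches on the gene's strand and red ones on the other strand; 22 of the 28 members have at least 1 match, and most matches lie before the start.

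Aged ad libitum kidney was compared with young kidney, which differs in age and not in diet. Slide series and scan number differ between these groups as well. A fall or rise with age below therefore names the comparison and not a cause. In this comparison the sterol enzymes that changed went down and 3 lipid-modifying enzymes went up. Of the 33 tested members 12 were lower (36.4%), 3 were higher and 18 did not pass, while 27.1% of all tested probes were called lower and 20.9% higher. Either way 48.1% of all probes were called, against 45.5% of the members, so the number of calls is near the background. The median difference was -0.07 on the log2 scale for the members and -0.05 for all tested probes. With 5 samples 0 members passed (0.114% of all probes did), and 8 had an unadjusted p under 0.05 by limma, as did 17.1% of all probes. Scaling arrays to a common median in place of quantile normalisation moved the median of all probes to -0.22, that of the members to -0.55 and the number of lower members to 20. Some falls were then clearly larger, as for Acss2 (-1.29), Dhcr7 (-1.15) and Mvd (-1.01). Over all probes the share of calls that were higher was 43.6% with quantile normalisation and 28.3% with median scaling.

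**Figure D2:**
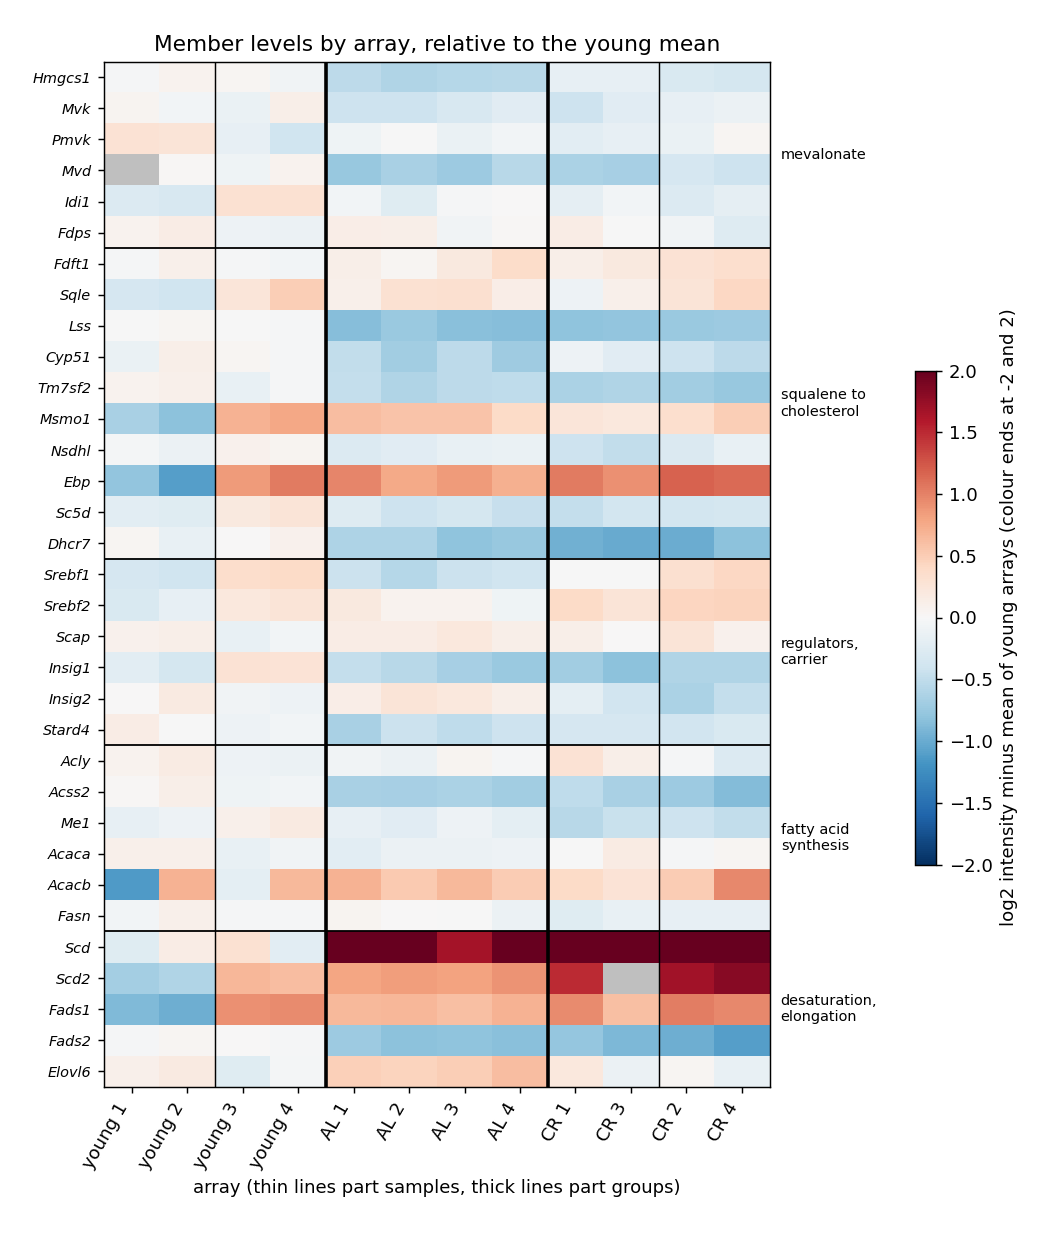
Level of the 33 tested members on each of the 12 arrays, as log2 intensity minus the mean of the young arrays (blue lower, red higher, grey missing); rows are ordered by role and arrays by sample. Lss, Dhcr7, Acss2 and Fads2 are blue on all 8 aged arrays, Scd is red on all of them, and Ebp, Msmo1 and Fads1 differ between the first and last pair of young arrays.

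Among the 6 mevalonate genes, 3 were lower in aged ad libitum than in young kidney (50%, against 27.1% of all tested probes). Hmgcs1, which makes the precursor of mevalonate, read 12.45, 12.54, 12.52 and 12.4 on young arrays 1 to 4 in log2 intensity, 11.96, 11.87, 11.9 and 11.93 on the ad libitum arrays, and 12.31, 12.18, 12.31 and 12.13 on the restricted arrays. The 3 groups did not overlap: ad libitum was lowest and restricted lay between. Hmgcs1 was lower in ad libitum than in young kidney by 1.47-fold (log2 difference -0.56, SE 0.2; adjusted p = 5.38e-05 over 12 arrays and 0.274 over 5 samples). Mvd, which forms the first isoprenoid unit from mevalonate, read 10.99, 10.88 and 11.04 on young arrays 2 to 4, with a missing spot on array 1. It read 10.21, 10.32, 10.24 and 10.41 on ad libitum arrays and 10.33, 10.63, 10.31 and 10.55 on restricted arrays. All 8 aged arrays lay below the young ones, and ad libitum was 1.6-fold lower than young (-0.67, SE 0.22; adjusted p = 0.000357 and 0.246). A second Mvd probe was lower too (-0.59, adjusted p = 0.000175). Mvk, the kinase that starts the use of mevalonate, also fell (-0.35, adjusted p = 0.00748 and 0.435). Pmvk (-0.07), Idi1 (-0.07) and Fdps (0.05), the later steps to farnesyl diphosphate, did not pass.

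From squalene onward 5 of 10 tested enzymes fell with age (50%, against 27.1% of all tested probes called lower). The closing of the sterol ring was the clearest case. Lss, the cyclase that makes lanosterol, read 9.55, 9.59, 9.55 and 9.53 on young arrays, 8.71, 8.81, 8.72 and 8.71 on ad libitum arrays, and 8.75, 8.82, 8.76 and 8.83 on restricted arrays. The young samples were alike and both aged groups lay well below them. The ad libitum level was 1.77-fold lower than young (-0.82, SE 0.19; adjusted p = 8.33e-07 and 0.171). A second Lss probe moved alike (-0.79, adjusted p = 1.48e-05), whereas another did not pass (-0.13, adjusted p = 0.366). Dhcr7, a reductase that acts late on the way to cholesterol, read 11.42, 11.23, 11.39 and 11.46 on young arrays, 10.76, 10.75, 10.57 and 10.61 on ad libitum arrays, and 10.41, 10.38, 10.36 and 10.56 on restricted arrays. Here the restricted arrays were the lowest and no group overlapped another, but the 2 diets nearly met (10.56 and 10.57). Their difference did not pass (-0.25, adjusted p = 0.0584 over 12 arrays). Ad libitum was 1.62-fold lower than young (-0.7, SE 0.2; adjusted p = 3.87e-05 and 0.213).

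Tm7sf2, which encodes a sterol C14 reductase, read 11.44, 11.48, 11.23 and 11.35 on young arrays, 10.9, 10.77, 10.85 and 10.86 on ad libitum arrays, and 10.75, 10.68, 10.77 and 10.62 on restricted arrays. Young arrays lay above all aged arrays, with an ad libitum difference of -0.53 (SE 0.21; adjusted p = 0.000143 and 0.301). Cyp51, the demethylase of lanosterol, differed by -0.6 (adjusted p = 0.000699 and 0.289) and Sc5d, the sterol C5 desaturase, by -0.37 (0.0222 and 0.497). Fdft1 (0.18), Sqle (0.21), Msmo1 (0.54), Ebp (0.82) and Nsdhl (-0.2) did not pass. For Sqle, which oxidises squalene, a second and dimmer probe was lower with age (-0.6, adjusted p = 0.00267), so that its probes disagree.

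Regulators moved unevenly. Insig1, which retains the Scap complex, read 9.26, 9.13, 9.77 and 9.75 on young arrays, 9, 8.92, 8.82 and 8.73 on ad libitum arrays, and 8.78, 8.88, 8.66 and 8.88 on restricted arrays. Every aged array was below every young one, although young B stood well above young A. The ad libitum level was 1.53-fold lower than young (-0.61, SE 0.3; adjusted p = 0.005 and 0.376). Stard4, a carrier of sterol between membranes, also fell (-0.5, adjusted p = 0.000341 and 0.31). Srebf1 (-0.46), Srebf2 (0.06), Scap (0.16) and Insig2 (0.18), did not pass, but a second Insig2 probe was higher (0.37, adjusted p = 0.0272).

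Of the genes that supply or build fatty acids only Acss2 passed among the 6 (16.7% lower, against 27.1% of all tested probes). Acss2, which activates acetate to acetyl-CoA, read 13.65, 13.74, 13.54 and 13.56 on young arrays, 12.98, 12.96, 12.99 and 12.93 on ad libitum arrays, and 13.11, 12.89, 12.98 and 12.76 on restricted arrays. Young arrays stood above both aged groups, which overlapped. Ad libitum was 1.58-fold lower than young (-0.66, SE 0.22; adjusted p = 8.02e-05 and 0.253). Fasn, the fatty acid synthase, differed by -0.01 (SE 0.19), Acly, which makes acetyl-CoA from citrate, by -0.04 (SE 0.25), and Acaca, the carboxylase of the committed step, by -0.14 (SE 0.21). Me1, a source of NADPH, differed by -0.18, and Acacb, the carboxylase at mitochondria, by 0.6. Neither passed, and the Acacb probe was dim and uneven on the young arrays (3.76, 5.59, 4.7 and 5.55).

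**Figure D3:**
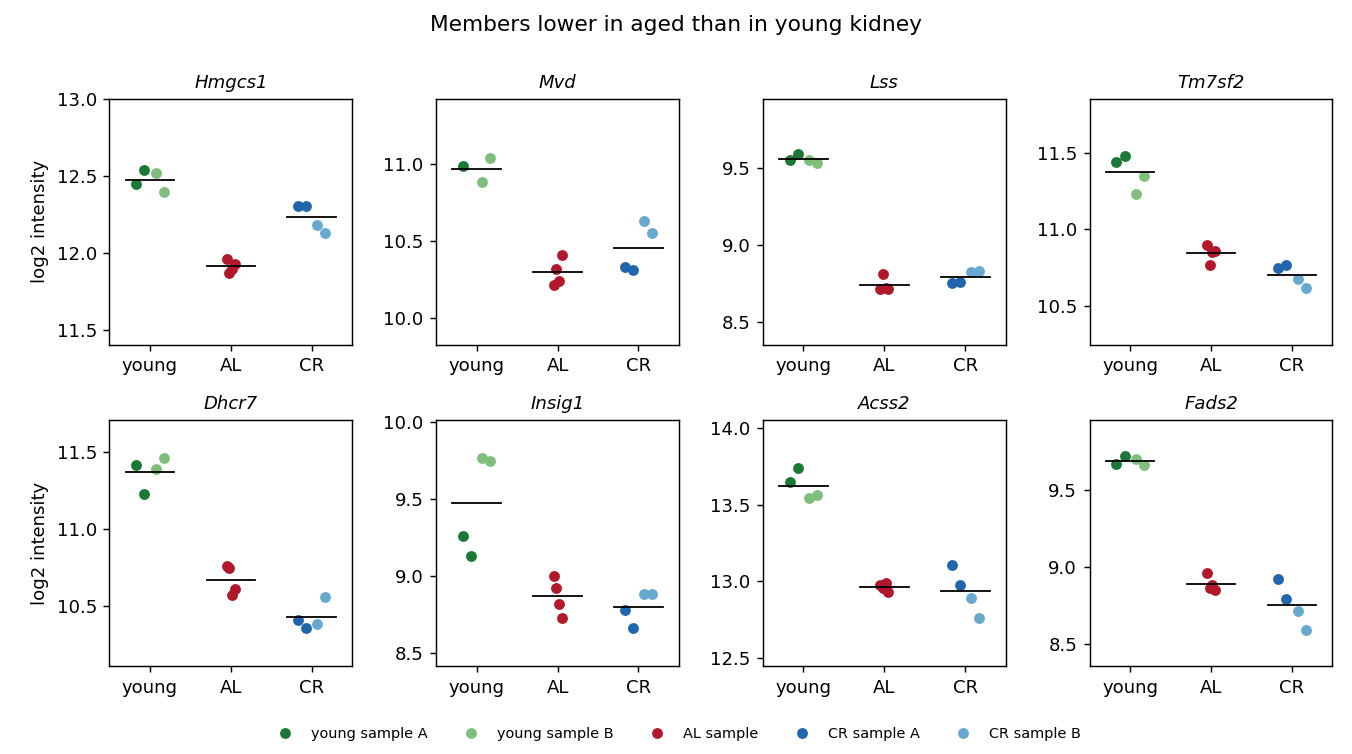
Log2 intensity (y axis) of 8 members on each array by group, with points coloured by sample and a black line at the group mean. In all 8 panels the aged ad libitum and aged restricted points lie below the young points; each panel has its own range.

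Desaturases went in both directions. Scd, which puts the double bond into stearate, read 3.12, 3.52, 3.67 and 3.16 on young arrays, 5.67, 5.67, 5.03 and 5.45 on ad libitum arrays, and 5.66, 5.49, 5.81 and 5.46 on restricted arrays. It was not well above background on any young array and above it on all 8 aged arrays. Against the lowest signal above background, Scd was at least 1.42-fold higher in ad libitum and at least 1.58-fold higher in restricted kidney. These bounds were not tested. The fits used the young values below background. They gave 2.09 in ad libitum (adjusted p = 3.21e-06 over 12 arrays and 0.0621 over 5 samples) and 2.24 in restricted kidney (2.26e-06 and 0.0343). The last value is the only member call with 5 samples. Scd entered the test only through the aged arrays on which it is high, so that it had to differ, and its calls are a description. Scd2, its paralog, read 8.24, 8.33, 9.59 and 9.54 on young arrays, 9.72, 9.76, 9.73 and 9.82 on ad libitum arrays, and 10.42, 10.61 and 10.75 on restricted arrays 1, 2 and 4, with array 3 missing. Most of the ad libitum rise in Scd2 (0.83, SE 0.56; adjusted p = 0.0386 and 0.473) came from young sample A. Without that sample it was 0.19 with an adjusted p of 0.115.

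Fat cells are rich in Scd, so their markers are given beside it. Summed over the 10 adipocyte markers with a value on all 12 arrays, the level was 6400 to 9160 on young arrays, 5500 to 5810 on ad libitum arrays and 4110 to 4260 on restricted arrays. Cidec, a fat droplet protein, made up much of that sum and fell by 1.57 with age (adjusted p = 3.81e-06 and 0.123). Without Cidec the sum was 2040 to 2830 on young arrays, 3750 to 4140 on ad libitum arrays and 2570 to 2730 on restricted arrays, so ad libitum kidney was then highest. Of the 10 adipocyte markers that were tested, a set with Cidea in place of Plin1, 4 were higher and 2 lower in ad libitum than in young kidney. The higher ones were Cfd (3.18, adjusted p = 1.69e-06 and 0.0879), Lipe (0.48, 0.0136 and 0.452), Cidea (0.39, 0.00524 and 0.417) and Fabp4. The lower ones were Cidec and Ucp1 (-0.35, 0.0325 and 0.471). Cfd read 7.51 and 6.46 in the young samples, 10.16 in the ad libitum sample, and 9.44 and 9.21 in the restricted samples. Plin1, which coats the fat droplet of adipocytes, was not above background on any array. Adipoq, which encodes the fat cell hormone adiponectin, differed by -0.01 (adjusted p = 0.964). Fabp4, a fatty acid carrier of fat cells and macrophages, rose by 1.62 (adjusted p = 9.52e-08 and 0.07). Their part in the Scd and Scd2 levels was not tested.

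Fads2, which starts the making of polyunsaturated fatty acids, went the other way. It read 9.67, 9.72, 9.7 and 9.66 on young arrays, 8.96, 8.86, 8.88 and 8.85 on ad libitum arrays, and 8.92, 8.71, 8.79 and 8.59 on restricted arrays. Aged arrays of both diets lay below all young arrays, and ad libitum was 1.74-fold lower (-0.8, SE 0.21; adjusted p = 9.14e-06 and 0.191). The second Fads2 probe had the same difference (-0.8, adjusted p = 1.84e-06). Fads1, which acts next to it in that route, read 7.42, 7.32, 9.22 and 9.25 on young arrays, so its difference of 0.65 (SE 0.77) lay within the young spread. Elovl6, which lengthens palmitate, read 7.15, 7.23, 6.81 and 7.01 on young arrays, 7.53, 7.49, 7.54 and 7.67 on ad libitum arrays, and 7.26, 7.09, 6.93 and 6.9 on restricted arrays. Ad libitum kidney was 1.42-fold higher than young (0.51, SE 0.22; adjusted p = 0.00291 and 0.342). A second Elovl6 probe did not pass there (0.26, adjusted p = 0.192), and was lower in restricted than in young kidney (-0.46, adjusted p = 0.0348), where the first differed by 0 (0.991).

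No slide series holds both young and ad libitum arrays. When the series was a block linked through the restricted arrays, 8 members were lower and 2 higher, against 15.4% of all probes called. Lss (-0.83, adjusted p = 0.000595), Dhcr7 (-0.76, 0.00609), Fads2 (-0.68, 0.00618), Mvd (-0.63, 0.0376) and Acss2 (-0.53, 0.0297) kept their calls. Scd was higher there too (0.0021), which is a description only, since it entered the test through the aged arrays. Insig1 (-0.55, 0.178) and Scd2 (0.6, 0.527) did not.

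The diet comparison sets restricted beside ad libitum kidney at the same age, although scan number differs between these groups as well. Here 5 of the 33 members passed: Srebf1 and Hmgcs1 were higher in restricted kidney and Insig2, Elovl6 and Me1 were lower. That is 15.2% of members, against 13.4% of all tested probes (7.39% higher and 5.98% lower), so the count is near the background. The median difference was -0.03 for members and 0.01 for all probes. With 5 samples 0 members passed, with adjusted p-values of 1 by limma, and 0 had an unadjusted p under 0.05, beside 4.75% of all probes (0% passed adjustment). Under median scaling the share of higher calls among all called probes was 43.2%, against 55.3%.

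Srebf1 read 8.47, 8.32, 8.47 and 8.5 on ad libitum arrays and 8.89, 9.22, 8.89 and 9.31 on restricted arrays. The diets did not overlap. Young sample A (8.56 and 8.5) lay next to the ad libitum arrays and young sample B (9.25 and 9.28) within the restricted range. The restricted level was 1.56-fold higher (0.64, SE 0.38; adjusted p = 0.0425). Srebf2 differed by 0.31 in the same direction and did not pass (adjusted p = 0.128). Insig2 read 9.72, 9.84, 9.8 and 9.71 on ad libitum arrays, 9.39, 8.96, 9.21 and 9.11 on restricted arrays, and 9.59, 9.77, 9.51 and 9.48 on young arrays. Restricted arrays were below the arrays of both other groups, 1.52-fold below ad libitum (-0.6, SE 0.23; adjusted p = 0.0025). The second Insig2 probe was lower as well (-0.47, adjusted p = 0.0286). Insig1 differed by -0.07 between diets.

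Hmgcs1 was 1.24-fold higher in restricted than in ad libitum kidney (0.32, SE 0.2; adjusted p = 0.00906), by 0.39 in restricted sample A and 0.24 in sample B. That call was lost with median scaling (0.14, adjusted p = 0.642). Elovl6 was 1.42-fold lower (-0.51, SE 0.22; adjusted p = 0.0103), which placed restricted kidney at the young level (difference 0, SE 0.18). Its second probe fell between diets too (-0.73, adjusted p = 0.0123) but ended below young (-0.46, adjusted p = 0.0348). Me1 read 11.33, 11.26, 11.38 and 11.29 on ad libitum arrays and 10.94, 11.08, 11.04 and 11 on restricted arrays. It was 1.23-fold lower (-0.3, SE 0.22; adjusted p = 0.0365), while its second, dimmer probe differed by 0.22 and did not pass. Scd (0.15) and Scd2 (0.83, SE 0.56; adjusted p = 0.119) did not pass between diets. Lss (0.05), Acss2 (-0.03) and Fads2 (-0.13) had differences smaller than their errors.

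Within slide series 1, which holds all 4 ad libitum and 2 restricted arrays, the 5 diet differences were 0.66 for Srebf1 (adjusted p = 0.0203), -0.61 for Insig2 (0.00552), -0.64 for Elovl6 (0.00498), 0.3 for Hmgcs1 (0.0453) and -0.29 for Me1 (0.0356). With the series as a block over all arrays, Insig2 and Elovl6 passed, and Srebf1 (adjusted p = 0.146), Hmgcs1 (0.0639) and Me1 (0.151) did not. Leaving out restricted sample A or B ended the calls of Srebf1 and Me1. Without sample A, Srebf1 differed by 0.83 (adjusted p = 0.0639) and Me1 by -0.27 (0.174). Without sample B they differed by 0.45 (0.312) and -0.32 (0.129). Hmgcs1 lost its call without sample A (0.24, adjusted p = 0.0901), and Elovl6 without sample B (-0.46, adjusted p = 0.0907).

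**Figure D4:**
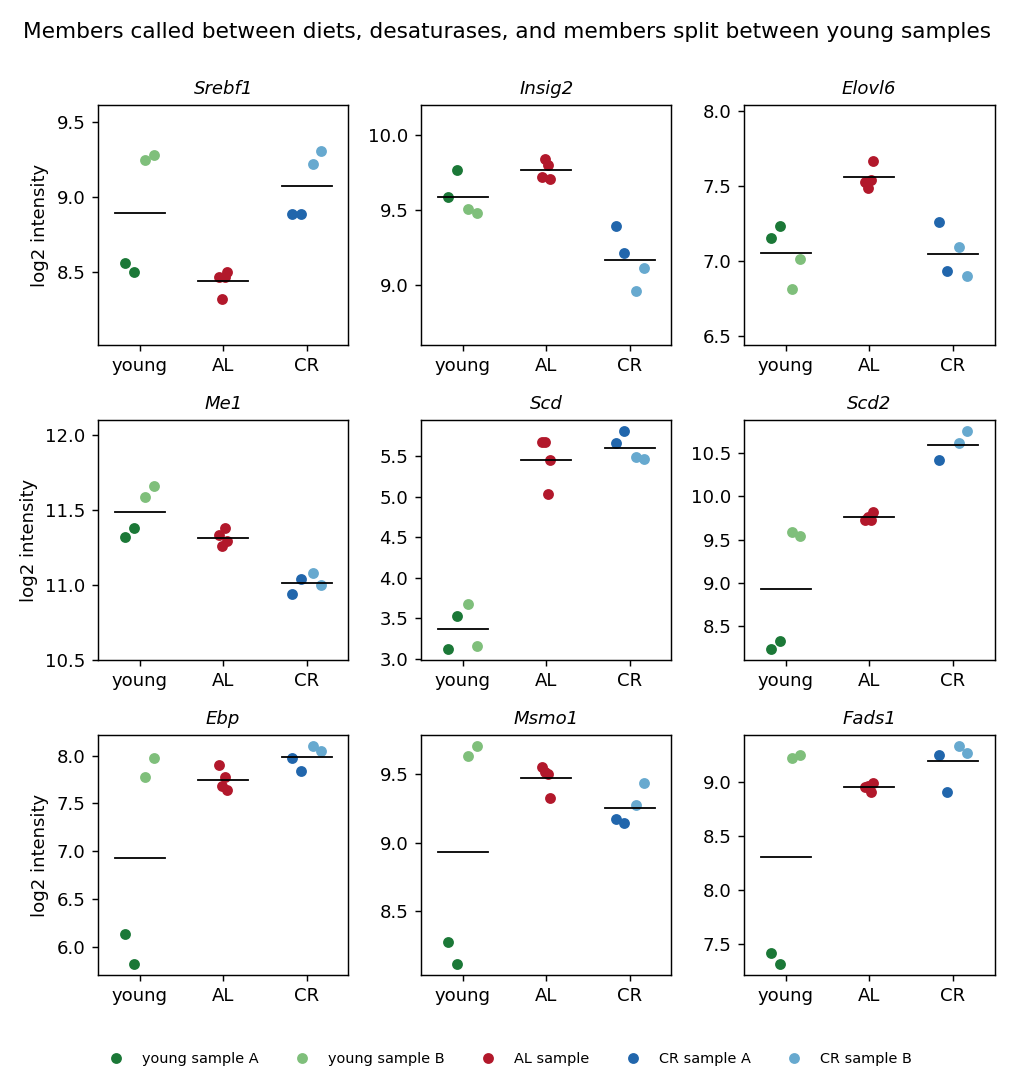
Log2 intensity (y axis) on each array for the members called between diets (Hmgcs1 is in the panels of members lower with age), for Scd and Scd2, and for Ebp, Msmo1 and Fads1; points are coloured by sample and lines mark group means. Srebf1 and Insig2 separate the aged diets without overlap, and in Ebp, Msmo1, Fads1 and Scd2 young sample A lies far below young sample B.

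Aged restricted kidney was last set against young kidney, which joins age and diet. Of the 33 members 15 were lower (45.5%) and 4 higher (12.1%), beside 24.6% and 19.7% of all tested probes. Either way 57.6% of members were called, against 44.3% of probes. The median difference was -0.17 for members and -0.02 for all probes. With 5 samples 1 member passed (0.91% of all probes did). It was Scd, whose calls are a description. Of the members 10 had an unadjusted p under 0.05, as did 23.3% of all probes. Median scaling gave 23 lower members with a median of -0.56, beside a median of -0.26 for all probes, with Acss2 at -1.5, Dhcr7 at -1.48 and Tm7sf2 at -1.22, and 24.1% of all calls higher, against 44.6%. Both aged groups are compared with the same young arrays, so their values are given side by side and are not independent.

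Dhcr7 fell 1.93-fold (-0.95, SE 0.16; adjusted p = 4.56e-06 over 12 arrays and 0.0773 over 5 samples), beside -0.7 in ad libitum kidney. Fads2 fell 1.91-fold (-0.93, SE 0.17; adjusted p = 3.35e-06 and 0.0818), and 1.99-fold by its second probe. Lss was 1.7-fold lower (-0.77, SE 0.16; adjusted p = 1.7e-06 and 0.0954) and Acss2 1.61-fold lower (-0.69, SE 0.18; 6.43e-05 and 0.127). These sizes were close to those in ad libitum kidney. Insig1 (-0.68, SE 0.25; adjusted p = 0.00286 and 0.2), Tm7sf2 (-0.67, SE 0.17; 2.92e-05 and 0.121) and Mvd (-0.51, SE 0.18; 0.00194 and 0.186) were lower as well. Hmgcs1 fell by 0.24 (SE 0.16; adjusted p = 0.011 and 0.406), less than its difference of -0.56 in ad libitum kidney.

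The 4 higher members were Scd, Scd2, Srebf2 and Fdft1. Scd2 was 3.17-fold higher (1.67, SE 0.45; adjusted p = 0.00197 and 0.142), by 2.31 against young sample A and 1.03 against B. Srebf2 differed by 0.37 (SE 0.22; adjusted p = 0.029 and 0.356), with 9.24, 9.39, 9.76 and 9.8 on young arrays and 9.93, 9.97, 9.8 and 9.99 on restricted arrays. The groups did not overlap, but young sample B came within rounding of the lowest restricted array. Fdft1, the squalene synthase, differed by 0.24 (adjusted p = 0.0383 and 0.42), while its second probe differed by 0.04 and did not pass. Members lower in restricted but not called in ad libitum kidney were Nsdhl (-0.34, adjusted p = 0.00793), Insig2 (-0.42, 0.00549), Me1 (-0.48, 0.000896) and Fasn (-0.18, 0.0357). Second probes of Insig2 (-0.1, adjusted p = 0.505) and Me1 (-0.14, 0.67) did not pass there.

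Slide series 2 holds the 4 young and 2 restricted arrays. Within it 5 members were lower and 1 was higher, and 13.5% of all probes were called. Dhcr7 (-0.98, adjusted p = 0.00736), Fads2 (-0.87, 0.00892), Lss (-0.77, 0.00892), Acss2 (-0.62, 0.0282) and Tm7sf2 (-0.66, 0.0211) were those lower members and Scd (adjusted p = 0.00389) the higher one. The Scd call is again a description. Scd2 (1.59, 0.0753) and Insig1 (-0.65, 0.109) missed the threshold there.

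Across both aged groups 11 members were called lower than young and 2 higher (33.3% and 6.06% of those tested, against 18.7% and 13.6% of all probes). The 11 were Hmgcs1, Mvd, Lss, Cyp51, Tm7sf2, Sc5d, Dhcr7, Insig1, Stard4, Acss2 and Fads2, and the 2 were Scd and Scd2. Scd had to differ, since it entered the test only through the aged arrays. On 11 members all 8 aged arrays lay below all 4 young arrays, as they did for 17.3% of all probes, and on 2 members they lay above, as for 11.8%. This second set holds Nsdhl in place of Cyp51, whose restricted array 1 (9.22) lay above young array 1 (9.19). By role, 7 of the 11 belong to the route from acetyl-CoA to cholesterol, 2 are regulators or carriers and 2 serve fatty acids. That route also makes up much of the 33 tested members, with 6 mevalonate genes and 10 from squalene onward. Its share of the 11 was not tested. The larger share of lower members than of lower probes was not tested.

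Within the young group 4 members differed by at least 1 on the log2 scale between samples A and B (12.1% of members, against 10% of probes). Ebp, the sterol isomerase, read 6.13, 5.82, 7.78 and 7.97 on young arrays 1 to 4, Msmo1, the sterol C4 oxidase, 8.28, 8.12, 9.63 and 9.7, and Fads1 and Scd2 as given above. For Ebp, Msmo1 and Fads1 the aged arrays of both diets lay nearer to young sample B than to A. For these 3 genes the sign of the ad libitum difference from young kidney depends on which young sample is used. For Ebp it was 1.78 against sample A and -0.13 against B, for Msmo1 1.27 and -0.2, and for Fads1 1.58 and -0.28. In restricted kidney the sign changed for Msmo1 (1.05 and -0.41) and Fads1 (1.82 and -0.04) but not for Ebp (2.02 and 0.12). Among called members the ad libitum difference kept its sign but was much smaller against sample A for Sc5d (-0.14 and -0.6) and Insig1 (-0.33 and -0.89), and smaller against B for Scd2 (1.47 and 0.19).

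Other genes of the same pathways were counted in 3 lists. Of 17 tested genes of sterol factor processing and the isoprenoid branch, 5 were lower (29.4%, against 27.1% of all probes) and 2 higher (11.8%, against 20.9%) in ad libitum than in young kidney (median -0.1), 2 lower (11.8%, against 5.98%) and 0 higher (0%, against 7.39%) between diets (median -0.08), and 8 lower (47.1%, against 24.6%) and 1 higher (5.88%, against 19.7%) in restricted than in young kidney (median -0.2). Acat2, a thiolase that forms acetoacetyl-CoA for the sterol route, read 11.2 and 11.05 in young samples A and B, 10.24 in the ad libitum sample, and 10.48 and 10.44 in restricted samples A and B. It fell by 0.88 with age (adjusted p = 4.02e-05 and 0.164). Lbr, a nuclear membrane protein that also reduces the sterol C14 bond like Tm7sf2, fell by 0.78 (adjusted p = 0.000426 and 0.263). Ggps1, which makes geranylgeranyl diphosphate, fell by 0.49 in ad libitum (0.00607 and 0.393) and by 0.79 in restricted kidney (0.000365 and 0.132). The 2 higher genes in ad libitum kidney were Por (1.17, 0.0138 and 0.391) and Pgrmc1 (0.52, 0.0314 and 0.493).

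Of 26 tested genes of sterol uptake, transport, storage and efflux, 6 were higher (23.1%, against 20.9% of all probes) and 3 lower (11.5%, against 27.1%) with age on the ad libitum diet (median 0.13), 1 higher (3.85%, against 7.39%) and 2 lower (7.69%, against 5.98%) between diets (median -0.11), and 8 higher (30.8%, against 19.7%) and 6 lower (23.1%, against 24.6%) in restricted than in young kidney (median -0.03). Scarb1, a receptor for high-density lipoprotein, read 6.72 and 7.43 in the young samples, 8.02 in the ad libitum sample and 8.36 and 8.42 in the restricted samples. It rose by 0.94 in ad libitum (adjusted p = 0.000941 and 0.28) and by 1.31 in restricted kidney (0.000103 and 0.1). Npc2, which hands cholesterol on in lysosomes, rose by 0.75 (0.000547 and 0.281) and Lrp1, an endocytic receptor, by 0.58 (0.000844 and 0.316). Macrophages express Npc2 and Lrp1 as well, and 10 of 12 macrophage markers rose between young and ad libitum kidney; their part in these rises was not tested. The 3 lower genes with age were Gramd1b (-0.59, adjusted p = 0.0346 and 0.479), Soat2 (-0.49, 0.0283 and 0.432) and Lpcat3 (-0.38, 0.00286 and 0.403). In restricted kidney Gramd1b differed from young by -1.24 (0.000668 and 0.131). Ch25h, which makes 25-hydroxycholesterol, fell by 0.59 between diets (adjusted p = 0.000152 and 0.964), from 10.11 to 9.5 and 9.55.

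Of 34 tested genes of fatty acid elongation, glycerolipid synthesis and lipogenic control, 12 were lower (35.3%, against 27.1% of all probes) and 6 higher (17.6%, against 20.9%) in ad libitum than in young kidney (median -0.1), 3 lower (8.82%, against 5.98%) and 2 higher (5.88%, against 7.39%) between diets (median -0.05), and 15 lower (44.1%, against 24.6%) and 5 higher (14.7%, against 19.7%) in restricted than in young kidney (median -0.07). Ppargc1b, a coactivator that works with the sterol regulatory factors in mouse liver, read 8.23 and 8.15 in the young samples, 7.21 in the ad libitum sample and 7.18 and 7.07 in the restricted samples. It fell by 0.98 (adjusted p = 4.51e-06 and 0.141). Dgat2, which makes triglyceride, fell by 0.78 (1.9e-05 and 0.189), and Mlx, the partner of the carbohydrate response factor, by 0.78 (0.000404 and 0.244). The 6 higher genes were Hsd17b12 (2.1, 0.00797 and 0.37), Lpin3 (0.9), Elovl4 (0.63), Agpat2 (0.55), Acsl4 (0.33) and Hacd1 (0.28). Hsd17b12 read 5.86 and 8.37 in young samples A and B and 9.22 in the ad libitum sample. Between diets Acsl3 fell by 0.5 (adjusted p = 0.00157) and Acsl1 by 0.62 (0.0102), both of which activate long-chain fatty acids, and neither passed with 5 samples.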

How the data were processed

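Kidney RNA was measured on 12 arrays, 4 per group. Per the file headers the array reports were written by CodeLink Expression Analysis 4.1.0.29054; they hold a deposited intensity per spot with the local background already subtracted, and a second one that was median-normalised with 20% trimming. The deposited value table holds a ratio, the authors' median-scaled intensity divided by a constant per probe, as found from the values; its log2 was an alternative.

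From the background-subtracted intensity, control spots were dropped, spots with contaminated, irregular or masked flags were set missing and saturated spots kept. The 33849 gene probes were quantile normalised, a floor of 7.7 (log2 2.94, the median of 256 negative controls) was set and log2 taken. A probe was tested when above background on at least 4 of 12 arrays with at least 2 values per group, which left 25398 (75%). An array has no read depth; its share of probes above background stands in for it, and 4 arrays per group bound the precision. Genes were named through the platform annotation, which can be old, for 16878 probes, from accessions for 183 and from descriptions for 27; 182 probes named several genes and 16579 none.

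All 12 arrays entered 1 two-sided limma fit (limma 3.58.1, R 4.3.3, lmFit then eBayes, no covariate), with Benjamini-Hochberg adjusted p-values over all tested probes; the script was tested on simulated data. Array values were given, per comparison, for up to 8 members past the threshold with the largest differences, and for their paralogs. Arrays were joined to 5 samples when they differed by no more than repeat spots within a 95% interval; 9 of 10 joined pairs met this directly, and ad libitum arrays 1 and 4 were joined through the others. Further alternatives were other scalings, floors and filters, all probes of a gene, blocks for replicate number, slide series and scan, and leaving out each array or sample. A level at a probe was never set against another probe's. The members and lists were chosen with earlier results of these data known. Elovl5 had no probe and is not analysed here.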

Additional observations from a re-analysis of the deposited data

Results flagged for a closer look

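Of 97 sets of 4 arrays (1 member in 1 group) examined for an array far from the other 3, 1 stood out, while chance alone would give about 1 in 20. Acaca, the acetyl-CoA carboxylase of the cytosol, read 10.78 on ad libitum array 1, below the nearest array at 10.88 and the highest at 10.89. The gap was 0.899 of the range, beyond the limit that Dixon's test sets for 4 values, and it is small in size.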

How the results depend on the processing

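No named difference changed its sign under any alternative run. Over all probes more were called without young sample B in every comparison, and without young sample A between diets. Larger member counts in those runs were not tested against that background. For ad libitum against young kidney, 20 members were lower with a median of -0.55 after median scaling, and 19 with -0.54 in the deposited value table; 1 was higher when probes had to be above background on all 12 arrays. With 5 samples 0 were higher and 0 lower. With the slide series as a random block (correlation -0.153) 11 were higher. That setting called 73.1% of all probes in either direction, against 48.1% in the main fit. With the series as a block linked through the restricted arrays, an alternative chosen after seeing the data, the median was -0.18. Without young sample A the median was -0.27, and without young sample B 9 members were higher. Leaving out single arrays gave 2 to 6 higher, 11 to 14 lower and medians of -0.12 to -0.07. For restricted against ad libitum kidney, 1 member was higher with a median of -0.11 after median scaling, 1 with -0.1 in the value table and 1 with no filter on dim probes. It was 0 higher and 0 lower with 5 samples, 0 higher with a median of 0.01 with the series as a fixed block, and a median of 0.01 within series 1. There were 5 higher and 5 lower without young sample A, 5 higher without young sample B, 0 higher with a median of 0.02 without restricted sample A, and 1 lower without restricted sample B. Single arrays gave 1 to 2 higher, 2 to 4 lower and medians of -0.04 to -0.01. For restricted against young kidney, 23 were lower with a median of -0.56 (median scaling) or -0.55 (value table). There was 1 higher and 0 lower with 5 samples. With the series as a fixed block 2 were higher, and 2 within the scan number that both groups share. Within series 2 there was 1 higher and 5 lower. Without young sample B 8 were higher, and 1 without restricted sample B. Single arrays gave 2 to 5 higher, 13 to 16 lower and medians of -0.2 to -0.14. Same-numbered arrays did not deviate together (correlations -0.18 to 0.15), and the replicate block left 2 higher members in that comparison. The 5-sample fit left 1 of 21 named calls, that of Scd, and median scaling left 19. Except where the alternative itself uses fewer samples or probes, the cause was not tested. A scan block could not be fitted for the ad libitum comparisons, because no other group shares that group's scan number. Signal near background limits Scd, Acacb and Hsd17b7.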

Other observations

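Several sterol and fatty acid enzymes draw electrons from shared reductases, which did not move alike. Por, the cytochrome P450 reductase that serves Cyp51 and Sqle, read 6.16 and 7.55 in young samples A and B, 8.02 in the ad libitum sample, and 6.7 and 7.07 in the restricted samples. It rose by 1.17 with age on the ad libitum diet (adjusted p = 0.0138 by limma over 12 arrays and 0.391 over 5 samples) and fell by 1.13 between diets (0.0442 and 1). Cyb5r3, the cytochrome b5 reductase that serves the desaturases, rose by 0.85 between young and restricted kidney (0.0184 and 0.285), with 9.87 in young sample A and 11.02 in young sample B. Fdxr, the mitochondrial reductase of steroid-making enzymes, fell by 0.48 in ad libitum kidney (0.00151 and 0.359).

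Thrsp, a regulator of lipogenesis in liver, read 7.92 in young sample A and 5.6 in young sample B, and 5.04, 5.16 and 5.05 in the aged samples.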
